A study of Mus musculus with 72 samples.

Results

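Naive pluripotency factors are the transcription factors and cofactors that hold mouse embryonic stem cells (mESCs) in the ground state of the early epiblast. Here 10 of them, chosen by name for their known function among the 22556 genes of the count tables, were followed in female mESCs differentiating into neural progenitor cells (NPCs): Nanog, Klf2, Klf4, Klf5, Esrrb, Tfcp2l1, Tbx3, Zfp42, Prdm14 and Tdgf1. RNA was measured by chromatin-associated RNA sequencing (ChrRNA-seq), in which the RNA bound to chromatin is isolated before sequencing, so that nascent and unspliced transcripts weigh more than in whole-cell RNA. All cells came from XX lines of a cross of 129/Sv with CAST mice and carried an Xist promoter that doxycycline switches on, either on the 129/Sv X chromosome (iXist-ChrX_Dom) or on the CAST X chromosome (iXist-ChrX_Cast). All libraries from day 2 on had doxycycline, so Xist was induced in WT and KO alike.

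The iXist-ChrX_Dom line gave WT cells (clone A11B2, 12 libraries) and the SmcHD1 KO clone A3 (14 libraries), and the iXist-ChrX_Cast line gave WT cells (clone C7H8, 14 libraries) and the SmcHD1 KO clones D5 (16 libraries of 13 samples) and G6 (16 libraries of 12 samples). SmcHD1 is a chromatin protein of the SMC family that takes part in silencing of the inactive X chromosome. The KO was made with small CRISPR-Cas9 mutations, which leave the counted span of Smchd1 in place, so its median levels in RPM (counts per 1000000 counted fragments of a library; 549 and 604 in WT of iXist-ChrX_Dom and iXist-ChrX_Cast, 489 in A3, 497 in D5, 553 in G6) do not check the KO labels. Each genotype stood for 1 clone, or for 2 in the KO of iXist-ChrX_Cast, and a difference between genotypes in the iXist-ChrX_Dom line cannot be told apart from a difference between clones. Days 2, 3, 5 and 7 had 2 samples per clone, and 3 in iXist-ChrX_Cast WT on days 3, 5 and 7. Days 15, 21 and 35, and day 52 in iXist-ChrX_Dom, had 1 sample per clone. Undifferentiated, uninduced ES cells were available from the KO clones (2 samples of A3, 2 of D5 and 1 of G6), and WT ES cells were not analysed here. The libraries held 9344054 to 31216487 counted fragments. In the samples, with runs R1 and R2 summed, 3 fragments, taken as the limit of detection, came to 0.0533 to 0.321 RPM.

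In the naive state, LIF acting through STAT3 raises Klf4 and Tfcp2l1, and inhibition of ERK signalling keeps Nanog and Klf2 active, while Esrrb binds many of the same enhancers downstream of Wnt signalling. Klf2, Klf4 and Klf5 are Krüppel-like factors with overlapping targets. Tbx3 is a T-box factor, Prdm14 restrains FGF signalling and DNA methylation, Zfp42 (Rex1) is the zinc-finger protein most often used as a marker of naive cells, and Tdgf1 (Cripto) is the cell-surface coreceptor of Nodal. When the signals are withdrawn, cells pass through a formative state, marked by Fgf5, Otx2, Pou3f1 and Dnmt3b, before they take on a lineage.

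The 10 genes are all autosomal and did not overlap another annotated gene on either strand. In mm10 coordinates, the counted spans were Nanog on chr6:122707488-122714633, Klf2 on chr8:72319061-72321654, Klf4 on chr4:55527136-55532475, Klf5 on chr14:99298690-99313409, Esrrb on chr12:86361116-86521628, Tfcp2l1 on chr1:118627944-118685168, Tbx3 on chr5:119670861-119684724, Zfp42 on chr8:43295066-43307009, Prdm14 on chr1:13113427-13127163 and Tdgf1 on chr9:110939607-110946158. The spans ran from 2.59 kb for Klf2 to 161 kb for Esrrb, and fragments in introns were counted with those in exons. Nanog and Tdgf1 have processed retrocopies elsewhere in the genome, and fragments that aligned equally well to more than 1 place were left out, so their levels are less certain than those of the others.

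The promoters of 7 of the 10 genes were found in the RefSeq promoter table (GRCm38.p6), with 9 start sites in all. The 250 bases before the start are shown for the 4 genes whose windows held a match to a Krüppel-like factor motif, the element bound by the Klf members of the same group. They are written 5′ to 3′ in the direction of transcription, with matches on either strand in capitals. The first is Tfcp2l1 at chr1:118627695-118627944 on the plus strand, the second Nanog (the upstream of its 2 starts) at chr6:122707239-122707488 on the plus strand, then Zfp42 at chr8:43307010-43307259 and Tdgf1 at chr9:110946159-110946408, both on the minus strand.
Tfcp2l1: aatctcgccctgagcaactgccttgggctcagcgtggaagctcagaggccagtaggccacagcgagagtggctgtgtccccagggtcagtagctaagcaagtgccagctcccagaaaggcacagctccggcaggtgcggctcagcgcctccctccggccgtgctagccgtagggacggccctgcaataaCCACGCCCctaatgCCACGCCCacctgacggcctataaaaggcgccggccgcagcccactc
Nanog: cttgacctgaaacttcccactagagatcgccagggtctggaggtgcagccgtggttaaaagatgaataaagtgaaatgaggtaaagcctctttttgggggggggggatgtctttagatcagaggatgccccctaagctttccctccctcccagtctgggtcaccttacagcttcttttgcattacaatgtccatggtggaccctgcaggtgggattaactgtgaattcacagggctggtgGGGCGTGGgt
Zfp42: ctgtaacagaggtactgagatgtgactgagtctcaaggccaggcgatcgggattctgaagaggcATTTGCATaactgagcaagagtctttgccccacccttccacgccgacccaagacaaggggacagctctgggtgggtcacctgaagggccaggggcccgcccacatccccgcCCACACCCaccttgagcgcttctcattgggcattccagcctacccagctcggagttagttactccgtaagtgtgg
Tdgf1: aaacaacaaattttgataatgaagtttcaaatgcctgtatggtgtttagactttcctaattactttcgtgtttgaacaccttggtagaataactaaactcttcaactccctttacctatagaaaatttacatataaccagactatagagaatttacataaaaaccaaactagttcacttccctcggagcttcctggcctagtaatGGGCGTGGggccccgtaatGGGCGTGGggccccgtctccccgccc
The capitals mark CCACGCCC (reverse complement GGGCGTGG) in Tfcp2l1, Nanog and Tdgf1, and CCACACCC and ATTTGCAT (the octamer bound by Pou5f1 and its relatives) in Zfp42. In windows of 300 bases (250 before and 50 after each start), CCACGCCC was present in 4 of the 9 promoters of these genes, which belong to 3 of the 7 genes since the windows of both Nanog starts share 1 site, and in 5.33% of all 32851 promoters of the table. CCACACCC was present in 1 of 9 against 3.56%, and ATTTGCAT in 1 of 9 against 1.74%. The Esrrb motif TCAAGGTCA (0.423% of promoters), the Sox motif CATTGTT (3.78%) and the Stat motif TTCCNGGAA (1.15%) were not among the letters of the 9 windows.

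Before differentiation, all 10 genes were transcribed in the 3 KO clones. Per kb of span, Zfp42 was the highest in ES cells, with group means of 19.8 to 36.9 RPKM. Tdgf1 was at 17.8 to 20.2 and Klf4 at 7.01 to 19.9 RPKM, Klf4 coming second in D5 and Tdgf1 in A3 and G6, and Prdm14 was the lowest at 1.29 to 2.24. Esrrb, with its long span, had the most fragments in A3 (472 and 500 RPM) and G6 (445 RPM) and came after Tfcp2l1 in D5 (549 and 511 RPM), but had only 2.77 to 3.30 RPKM. The ES markers Pou5f1, Nanog, Zfp42 and Esrrb together summed to 757 to 1117 RPM in the 5 ES samples. Sox2 and Sox1 had no count in any of the 65 samples. Each lies inside a longer gene on the same strand, Sox2ot and Gm5607, and neither could serve as a marker.

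**Figure D1:**
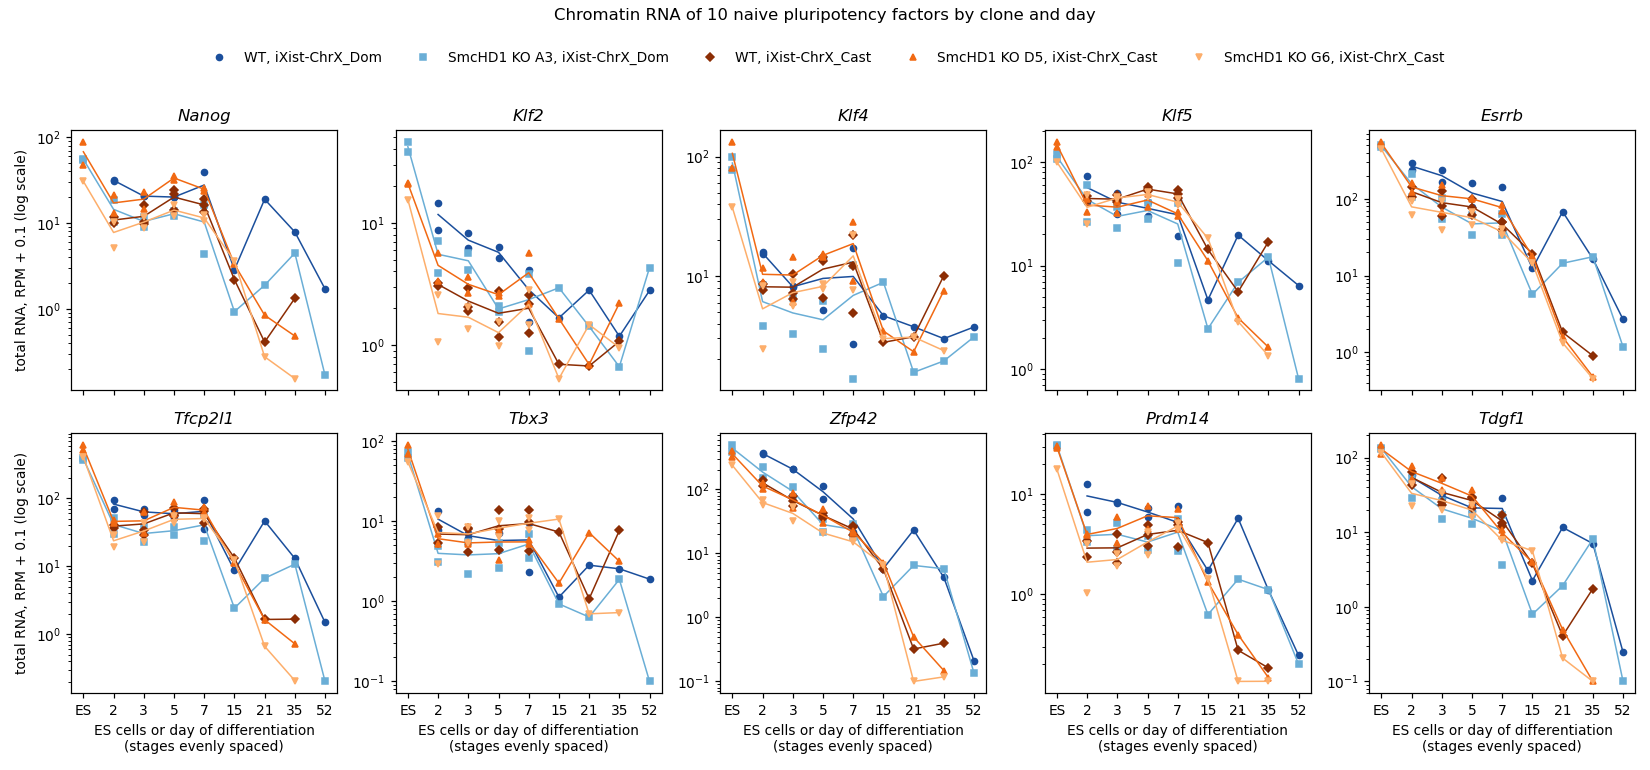
Chromatin-associated RNA of each of the 10 genes (RPM + 0.1, log axis) in ES cells and by day of differentiation, with the stages evenly spaced; each point is 1 sample and lines join the means of a clone. Tfcp2l1, Tbx3, Klf4, Prdm14 and Klf2 lie far lower on day 2 than in ES cells and the means of Zfp42, Tdgf1 and Esrrb lie lower on day 7 than on day 2 in all 5 clones.

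Most of the loss from the ES level came before the first differentiated sample. In A3, Tfcp2l1 stood at 372 and 395 RPM in ES cells and at 52 and 30.3 RPM on day 2. In D5 the same gene went from 524 and 617 RPM to 43.6 and 48 RPM, and in G6 from 407 RPM to 18.9 and 28.5 RPM. In each clone, both day 2 samples lay below every ES sample, which was not counted over all genes. Klf4 went from 98.9 and 77.7 to 8.26 and 3.75 RPM in A3, from 80.3 and 132 to 8.82 and 11.7 RPM in D5, and from 37.4 to 2.33 and 8.09 RPM in G6. Tbx3 went from 73.5 and 61.1 to 4.74 and 2.97 RPM in A3, from 68 and 89.2 to 5.05 and 6.8 RPM in D5, and from 54.5 to 2.81 and 11.4 RPM in G6. As shares of the ES mean, Tbx3 kept 5.73 to 13%, Tfcp2l1 5.82 to 10.7%, Klf4 6.80 to 13.9%, Prdm14 11.2 to 13.1% and Klf2 11.1 to 21.0% on day 2.

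The other 5 genes held more of their level at this first step. Esrrb kept 17.6 to 32.3%, Nanog 25.1 to 26%, Klf5 26 to 38.5%, Zfp42 26.2 to 42.3% and Tdgf1 28.4 to 50.0%. Nanog was at 56.1 and 54.6 RPM in A3 ES cells, 47.4 and 88.2 RPM in D5 and 30.6 RPM in G6, and on day 2 at 18.6 and 10.2, 13 and 21.2, and 5.06 and 10.3 RPM in the same clones. Zfp42, at 384 and 496 RPM in A3 ES cells, still had 223 and 149 RPM on day 2. The ES and day 2 values of Zfp42 did not overlap in any of the 3 clones, a count likewise not made over all genes.

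In the fit across all genes (edgeR quasi-likelihood test, Benjamini-Hochberg adjusted over all genes tested), all 10 genes fell from ES to day 2 in D5 and G6, where 16% of 17630 genes were lower. The largest changes there were those of Tfcp2l1 (log2 fold change -4.06 ± 0.29 SE, adjusted p = 1.07e-08) and Tbx3 (-3.55 ± 0.44, adjusted p = 6.59e-06), and the smallest was that of Tdgf1 (-1.61 ± 0.27, adjusted p = 0.000173). In A3, 8 of the 10 fell, where 10.1% of 16674 genes were lower. Tbx3 (-4.07 ± 0.66, edgeR adjusted p = 0.00203) and Klf4 (-3.84 ± 0.95, adjusted p = 0.0149) changed most, and Esrrb (-1.59 ± 0.55, adjusted p = 0.0561) and Klf5 (-1.34 ± 0.54, adjusted p = 0.0911) did not pass. Without 1 of the 4 A3 samples, 4 to 6 genes passed: Zfp42 and Tdgf1 were lost without any of them, Klf4 without any but the second ES sample, and Nanog without the first ES sample or the second of day 2. Doxycycline was added with the change of medium, so Xist induction and the exit from the ES state cannot be told apart at this step.

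Genes of the same network moved with them. Of 6 genes of the LIF and STAT3 pathway, 4 fell in D5 and G6 and 2 in A3, and Lif itself rose in D5 and G6 (0.79). Socs3, the feedback inhibitor that STAT3 induces, had the largest change (log2 fold change -2.29 in D5 and G6, -3.17 ± 0.58 in A3), and Il6st, the shared signalling receptor gp130, fell by 1.08 and 0.73 on the log2 scale. Of 12 other genes of the naive state, 7 fell in D5 and G6 and 3 in A3, led by Tet2, which oxidises methylcytosine (-3.27 and -2.25), Nr0b1, an orphan nuclear receptor (-2.86 and -2.41), and Tcl1, a cofactor of AKT (-2.60 and -2.48). Over all genes tested, the median change was 0.011 in D5 and G6 and 0.020 in A3, against -2.67 and -2.40 over the 10 naive factors. None of the 3 core factors tested fell (Pou5f1, Sall4 and Utf1), and Utf1 rose in D5 and G6 (1.05). Of 10 formative genes, 6 rose in D5 and G6, where 18.1% of all genes tested were higher, and 4 in A3, where 10.8% were. Among them were the de novo methyltransferase gene Dnmt3b (2.57 and 2.49), Pou3f1 (2.69 in D5 and G6) and Fgf5 (1.97 in D5 and G6).

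**Figure D2:**
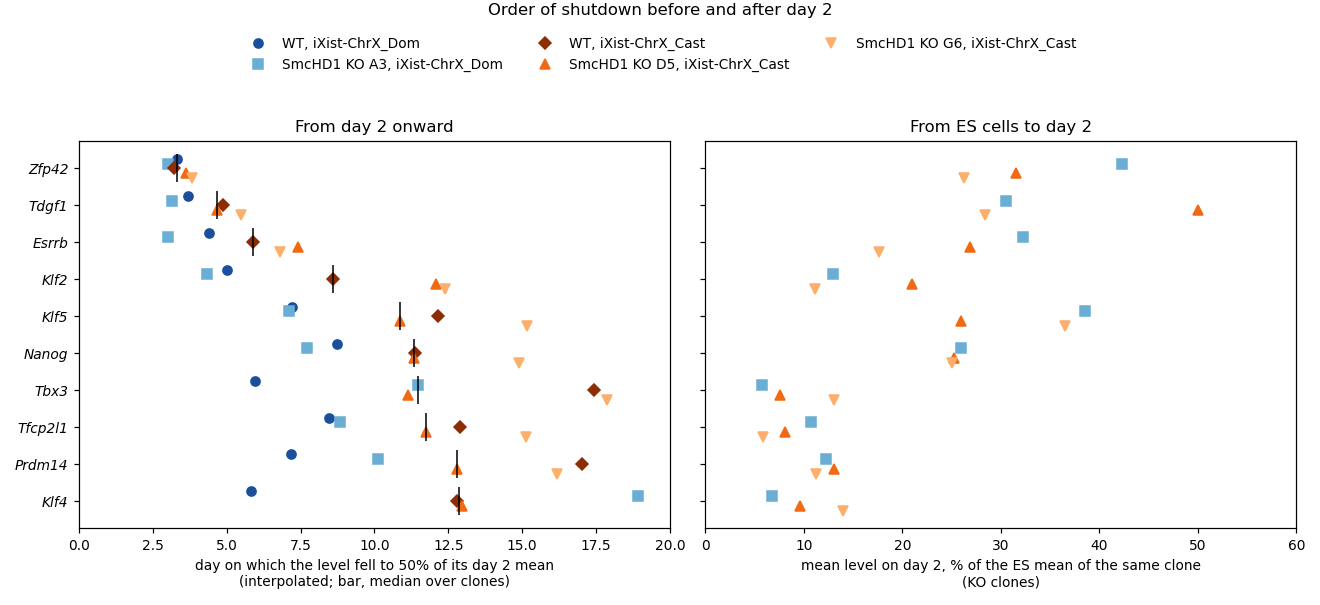
Left, the interpolated day on which each gene reached 50% of its day 2 mean, with 1 point per clone and a bar at the median; right, the mean level on day 2 as a percentage of the ES mean in the 3 KO clones. Zfp42, Tdgf1 and Esrrb come first on the left, whereas the lowest shares on the right are those of Tbx3, Tfcp2l1 and Klf4.

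The order of shutdown was read as the day on which the mean log2 level, joined by straight lines between sampled days, first reached 50% of its start. From ES, with no sample before day 2, the median over the 3 KO clones was 0.54 days for Tbx3, 0.55 for Tfcp2l1, 0.60 for Klf4, 0.66 for Prdm14 and 0.67 for Klf2. Nanog followed at 1.00, Esrrb at 1.05, Tdgf1 at 1.13, Zfp42 at 1.20 and Klf5 at 1.31 days. These days are interpolated and serve only to rank the genes. From day 2, which all 5 clones share, the order was another. Zfp42 reached 50% of its day 2 level at day 3.31 (range over clones 3.01 to 3.82), Tdgf1 at 4.66 (3.16 to 5.47) and Esrrb at 5.88 (3.01 to 7.43). Klf2 followed at 8.60 (4.34 to 12.4). Klf5 (10.9), Nanog (11.3), Tbx3 (11.5), Tfcp2l1 (11.8) and Prdm14 (12.8) had medians between days 10 and 13, and their ranges over clones overlapped each other. Klf4 reached it in 4 of the 5 clones, at a median of 12.9, and not in G6.

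Zfp42, Tdgf1 and Esrrb had lower means on day 7 than on day 2 in all 5 clones. Zfp42 in iXist-ChrX_Dom WT was at 361 and 365 RPM on day 2, 209 and 204 on day 3, 69.9 and 114 on day 5 and 21.6 and 47.2 on day 7. In iXist-ChrX_Cast WT it was at 141 and 112 RPM on day 2, 66.5, 79.3 and 55.3 on day 3, 38.5, 35.1 and 43.3 on day 5 and 19.1, 26.1 and 26.4 on day 7. In both WT lines the samples of a day lay below all those of the sampled day before it, and the share of all genes doing so was not counted. Tdgf1 went from 50.3 and 58.2 RPM on day 2 to 12.9 and 28.4 RPM on day 7 in iXist-ChrX_Dom WT, and from 43.4 and 64.6 to 13.4, 11.8 and 16.7 RPM in iXist-ChrX_Cast WT. Esrrb went from 238 and 294 to 39.7 and 144 RPM in iXist-ChrX_Dom WT and from 141 and 107 to 39.4, 50.1 and 50.2 RPM in iXist-ChrX_Cast WT. Klf2 in iXist-ChrX_Dom WT also ended lower, at 14.6 and 8.66 RPM on day 2 and 1.46 and 4.03 RPM on day 7. By day 7, the KO clones held 5.34 to 6.35% of their ES level of Zfp42, 6.59 to 7.74% of Tdgf1 and 8.30 to 14.5% of Esrrb.

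Nanog and Tfcp2l1 did not follow this course. Nanog in iXist-ChrX_Cast WT was at 9.96 and 11.5 RPM on day 2, 21.9, 24 and 14.1 on day 5 and 13.4, 19 and 16.1 on day 7. In D5 it was at 13 and 21.2 RPM on day 2, 35.1 and 31.8 on day 5 and 25.8 and 23.6 on day 7, and in G6 at 5.06 and 10.3, 16.1 and 12, and 12.4 and 10.4 RPM on the same days. In each of these 3 clones both day 2 samples lay below every day 5 sample, which was not counted over all genes. In iXist-ChrX_Dom WT, Nanog was instead at 31.2 and 31.6 RPM on day 2, 20 and 20.1 on day 5 and 16.1 and 39.3 on day 7. Tfcp2l1 was at 40.8 and 37.2 RPM on day 2 in iXist-ChrX_Cast WT and at 43.4, 70.6 and 64.5 RPM on day 7, and at 94.1 and 70.9 against 35.7 and 93.4 RPM in iXist-ChrX_Dom WT. The day 7 samples of iXist-ChrX_Dom WT differed widely, the second lying above the first for every one of the 10 genes.

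**Figure D3:**
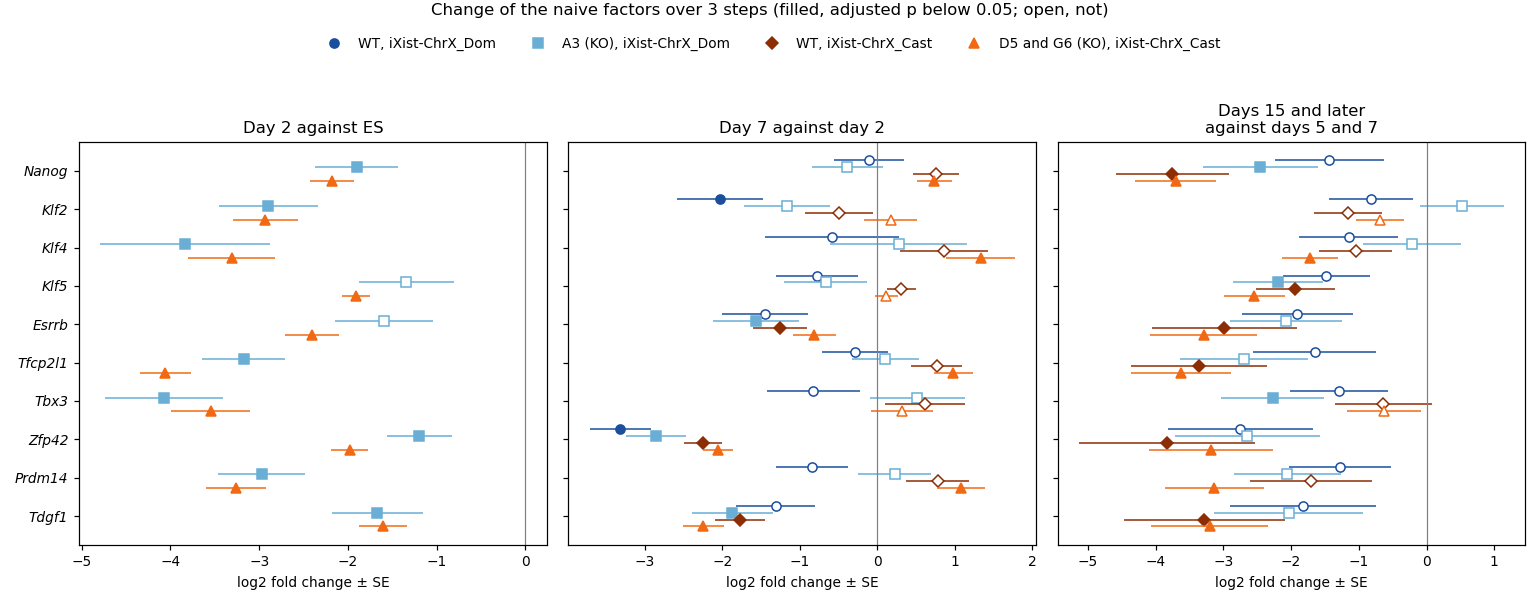
Log2 fold change (points, ± SE) of the 10 genes from ES to day 2, from day 2 to day 7 and from days 5 and 7 to days 15 and later, by clone group; filled points passed an adjusted p of 0.05 in edgeR and open points did not. All points of the first panel lie below 0, and in the second Zfp42 lies below 0 in every group while Nanog, Tfcp2l1, Prdm14 and Klf4 lie above it in D5 and G6.

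Tested between day 2 and day 7, Zfp42 fell in every clone group. Its log2 fold change was -3.32 ± 0.40 in iXist-ChrX_Dom WT (edgeR adjusted p = 0.000117), -2.86 ± 0.39 in A3 (adjusted p = 0.000197), -2.25 ± 0.24 in iXist-ChrX_Cast WT (adjusted p = 5.46e-07) and -2.06 ± 0.20 in D5 and G6 (adjusted p = 4.14e-08). Tdgf1 and Esrrb fell in A3 (-1.87 and -1.56), iXist-ChrX_Cast WT (-1.77 and -1.26) and D5 and G6 (-2.25 and -0.81), and in iXist-ChrX_Dom WT had -1.31 ± 0.51 (edgeR adjusted p = 0.0734) and -1.45 ± 0.55 (adjusted p = 0.0682). There Klf2 fell (-2.03 ± 0.55, edgeR adjusted p = 0.0164). Thus 2 of the 10 genes fell in iXist-ChrX_Dom WT, where 13% of genes were lower, 3 in A3 (15.4% lower), 3 in iXist-ChrX_Cast WT (20.1% lower) and 3 in D5 and G6 (26.1% lower). In D5 and G6, 4 genes rose, where 23.8% of genes were higher: Klf4 (1.34 ± 0.44, edgeR adjusted p = 0.0155), Prdm14 (1.08 ± 0.31, adjusted p = 0.00602), Tfcp2l1 (0.99 ± 0.25, adjusted p = 0.00255) and Nanog (0.74 ± 0.23, adjusted p = 0.0103). From day 2 to day 5, Nanog rose in iXist-ChrX_Cast WT (1.02 ± 0.30, edgeR adjusted p = 0.0169; 12.0% of genes higher) and in D5 and G6 (1.14 ± 0.23, adjusted p = 0.00051; 18.8% higher). Day 5 against day 2 was not among the planned steps. From day 2 on, the mean of Nanog was highest on day 5 in iXist-ChrX_Cast WT, D5 and G6. Of the 10 genes, 1 rose and 2 fell in iXist-ChrX_Cast WT, where 2114 and 2047 of 17630 genes did. In D5 and G6, 4 rose and 2 fell, where 3312 and 3543 genes did. Day 5 and day 7 were set against the same day 2 samples.

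Zfp42 in every group, Tdgf1 in iXist-ChrX_Cast WT and in D5 and G6, and Tfcp2l1 and Prdm14 in D5 and G6 passed with any sample left out, whereas each of the other calls was lost without at least 1 sample. In A3, Tdgf1 and Esrrb were lost without the first sample of day 2 or the second of day 7, and Esrrb also without the second of day 2. Klf2 in iXist-ChrX_Dom WT was lost without the first sample of day 2 or of day 7, while without the second of day 7 the number of genes falling there was 6. Esrrb in iXist-ChrX_Cast WT was lost without the first sample of day 2. Among D5 and G6, Nanog was lost without the first day 2 sample of either clone, Klf4 without the second day 7 sample of either clone or the first day 2 sample of G6, and Esrrb without the second sample of day 2 or day 7 of either clone. In D5 alone, Tdgf1 and Zfp42 passed, and in G6 alone these 2 and Klf4, Tfcp2l1 and Prdm14. The share of all genes passing in these single-clone fits is not given here. Over both clones, 8807 of 17630 genes passed in either direction.

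Of the 12 other naive state genes, 8 fell between day 2 and day 7 in iXist-ChrX_Dom WT, 8 in A3, 8 in iXist-ChrX_Cast WT and 7 in D5 and G6, where Tet2 rose (0.66). Dppa2, which activates genes of the early embryo, had log2 fold changes of -3.15, -3.28, -3.71 and -3.86 in that order. The FGF ligand gene Fgf4 (-2.74, -3.86 and -3.07 in the first 3) and the TGF-β family gene Gdf3 (-3.29 in A3 and -3.35 in D5 and G6) were also among the largest. Of the 3 core factors tested, 1 fell in iXist-ChrX_Dom WT (Sall4) and all 3 in each of the other groups. The formative genes fell in part: 3 of 10 in iXist-ChrX_Dom WT, 4 in A3, 5 in iXist-ChrX_Cast WT and 7 in D5 and G6, with 1 higher there. Of the 6 LIF and STAT3 pathway genes, 1 or 2 rose in each group, beside the share of all genes that were higher (13.8% in iXist-ChrX_Dom WT, 16.7% in A3, 17.9% in iXist-ChrX_Cast WT and 23.8% in D5 and G6), and 1 fell in D5 and G6.

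From day 15 on, cells had passed through suspension culture with EGF and FGF and replating. The 10 genes together summed to 5.56 to 202 RPM in the 17 late samples, against 102 to 931 RPM on days 2 to 7. iXist-ChrX_Dom WT on day 21 was the highest, with 67.8 RPM of Esrrb, 46.5 of Tfcp2l1, 18.9 of Nanog and 23.1 of Zfp42. The day 15 sample of that clone had 12.3, 8.59, 2.75 and 5.7 RPM of the same genes, and the day 52 sample 2.59, 1.38, 1.6 and 0.109 RPM. Library names in the files form 2 series, and the day 15 sample belongs to another one than those of days 21, 35 and 52, in which the 10 genes summed to 202, 66.7 and 20.4 RPM. In iXist-ChrX_Cast WT, D5 and G6, Zfp42 was at 5.58, 7.08 and 6.47 RPM on day 15, at 0.221, 0.395 and 0 RPM on day 21 and at 0.296, 0.0476 and 0.0178 RPM on day 35. The day 35 values of D5 and G6 lay below the limit of detection of their samples. Tdgf1 had no fragment on day 35 in D5 and G6 and on day 52 in A3, and Tbx3 none on day 52 in A3. Klf4 (1.46 to 9.98 RPM), Klf2 (0.432 to 4.21 RPM), Klf5 (0.707 to 19.6 RPM) and Esrrb (0.355 to 67.8 RPM) stayed above the limit of detection in all 17 late samples.

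Lists of neural precursor and fibroblast genes rose while these levels fell. The neural precursor list of 7 genes (Pax6, Nes, Fabp7, Olig2, Sox9, Vim and the uncountable Sox1) summed to 132 to 921 RPM in the late samples, against 35.0 to 240.4 RPM on days 2 to 7. Of the 7, 2 (Sox1 among them) had late means below 0.1 RPM in each iXist-ChrX_Cast clone. The 8 fibroblast genes (Col1a1, Col1a2, Col3a1, Dcn, Lum, Postn, Thy1 and Twist1) summed to 5.53 to 32.2 RPM in ES cells, 7.85 to 145 RPM on days 2 to 7 and 244 to 16145 RPM in the late samples. Other lists did not all rise. Medians of the trophoblast list (Cdx2, Elf5 and Tfap2c) were lower late than on days 2 to 7 in A3 (2.65 against 5.83 RPM), iXist-ChrX_Cast WT (2.79 against 4.97), D5 (2.17 against 5.34) and G6 (1.12 against 3.62). In iXist-ChrX_Dom WT they were 8.22 and 8.21 RPM. The mesoderm list (T, Mixl1, Mesp1 and Eomes) had a higher late median in iXist-ChrX_Dom WT (56.8 against 7.18 RPM) and a lower one in G6 (1.12 against 23.1 RPM). The 3 late samples with most of the 10 naive factors were iXist-ChrX_Dom WT on day 21 (202 RPM, with 387 RPM of the fibroblast list), G6 on day 15 (75.5 and 1210 RPM) and iXist-ChrX_Cast WT on day 15 (71.6 and 244 RPM). Those with least were G6 on day 35 (5.56 and 13917 RPM) and A3 on day 52 (9.29 and 10168 RPM). In iXist-ChrX_Cast WT, both lists were higher on day 35 (40.9 and 9320 RPM) than on day 21 (14.3 and 2290 RPM). The part of other cell types in the late levels was not tested. In bulk RNA, fewer cells that express a gene and less RNA per cell cannot be told apart.

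Against days 5 and 7, 8 of the 10 genes fell from day 15 on in D5 and G6, where 27.8% of genes were lower. Nanog (-3.70 ± 0.60, edgeR adjusted p = 5.26e-05) and Tfcp2l1 (-3.63 ± 0.74, adjusted p = 0.000454) changed most, and Klf2 (-0.69 ± 0.36, adjusted p = 0.103) and Tbx3 (-0.63 ± 0.54, adjusted p = 0.337) did not pass. In iXist-ChrX_Cast WT, 6 fell, where 11.5% of genes were lower: Zfp42 (-3.83), Nanog (-3.75), Tfcp2l1 (-3.36), Tdgf1 (-3.28), Esrrb (-2.99) and Klf5 (-1.94). Without the day 21 sample Nanog alone passed there, without the day 35 sample Esrrb, Tfcp2l1, Zfp42 and Tdgf1 were lost, and Esrrb and Tdgf1 were also lost without any of the day 5 samples or the second or the third of day 7, Zfp42 without the first or second of day 5, and Tdgf1 without the first of day 7. In A3, 3 fell, where 8.59% of genes were lower: Nanog (-2.46 ± 0.85, edgeR adjusted p = 0.0492), Tbx3 (-2.27) and Klf5 (-2.19). None of these 3 passed without the day 15 sample, either day 5 sample or the first of day 7, Nanog and Tbx3 were lost without day 21, Nanog and Klf5 without day 52, and Tbx3 without the second sample of day 7. In iXist-ChrX_Dom WT, 0 passed by edgeR, where 2.52% of genes were lower. At an unadjusted p under 0.05 were 3 of the 10, as were 4597 of all 15341 genes tested. By DESeq2 1 passed, and without the day 21 sample 3 did (Esrrb, Zfp42 and Prdm14). The share of all genes in those 2 fits is not given here. Late days stood in for replicates in these fits.

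The levels of the WT lines differed. From day 2 to day 7, 5 of the 10 genes were higher in iXist-ChrX_Dom WT than in iXist-ChrX_Cast WT, where 13.1% of 14806 genes were higher: Klf2 (log2 difference 1.39 ± 0.25, edgeR adjusted p = 0.000613), Zfp42 (1.14 ± 0.17, adjusted p = 0.000134), Prdm14 (0.97 ± 0.25, adjusted p = 0.00813), Esrrb (0.87 ± 0.21, adjusted p = 0.00593) and Nanog (0.66 ± 0.20, adjusted p = 0.0208). On day 2, Klf2 was at 14.6 and 8.66 RPM in the first line and 2.93 and 3.14 RPM in the second. Nanog was lost without the second day 7 sample of iXist-ChrX_Dom WT or the second day 2 sample of iXist-ChrX_Cast WT. Of the 10 genes, 0 lay without overlap above iXist-ChrX_Cast WT on all 4 days, as 4.92% of genes did. The neighbours of some of these genes differed in the same direction. The median log2 difference was 0.47 over the 778 genes tested on chromosome 8, which holds Klf2 and Zfp42, and -0.41 on chromosome 5, which holds Tbx3, against 0.002 over all genes. Within 10 Mb it was 0.49 around Klf2 (154 genes) and 0.43 around Zfp42 (65 genes). Whether the neighbourhood had a part in the differences of single genes was not tested.

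In the iXist-ChrX_Dom line, A3 lay below WT for most of the 10 genes from day 2 to day 7. Nanog was at 18.6 and 10.2 RPM on day 2, 11.8 and 8.89 on day 3, 11.9 and 13.6 on day 5 and 16.1 and 4.3 on day 7 in A3, against 31.2 and 31.6, 20.7 and 20.3, 20 and 20.1, and 16.1 and 39.3 RPM in WT. It was the only 1 of the 10 whose WT samples all lay above those of A3 on each of the 4 days, which 0.771% of 14782 genes did, and on day 7 the gap was that between 16.08 RPM in WT and 16.06 RPM in A3. Zfp42 was at 223 and 149, 109 and 77, 34.5 and 21.6, and 29 and 18 RPM in A3. Its samples lay below those of WT on the first 3 of these days and overlapped them on day 7.

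**Figure D4:**
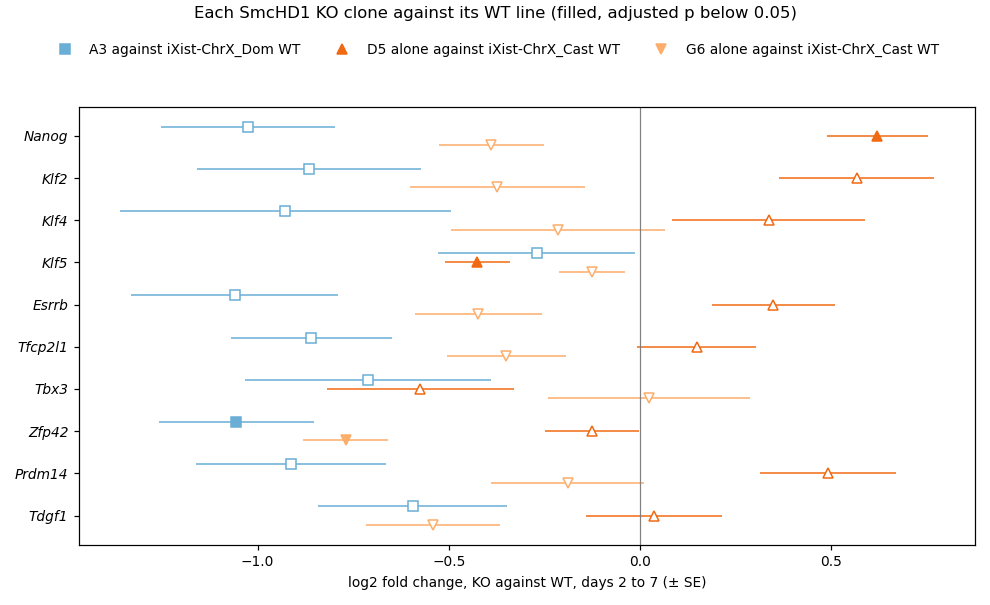
Log2 difference (points, ± SE) of each KO clone from the WT of its line over days 2 to 7; filled points passed an adjusted p of 0.05 in edgeR and open points did not. A3 lies below 0 for all 10 genes, while for Nanog D5 lies above 0 and G6 below it.

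The fit over these days called 1 of the 10 genes lower in A3, Zfp42 (log2 difference -1.06 ± 0.20, edgeR adjusted p = 0.0299), where 0.44% of 14782 genes were lower. Nanog (-1.02 ± 0.23, edgeR adjusted p = 0.0505), Esrrb (-1.06 ± 0.27, adjusted p = 0.0793) and Tfcp2l1 (-0.86 ± 0.21, adjusted p = 0.0704) did not pass, and the difference of all 10 was negative, with a median of -0.89 against 0.006 over all genes. With a sample left out, Zfp42 passed in 6 of 16 fits, with adjusted p between 0.00657 and 0.0797. It was lost without the second sample of WT day 3, 5 or 7 or of A3 day 2, without the first of WT day 2 or 3, and without any of the 4 A3 samples of days 3 and 5. With the library-name series as a block, an alternative added after the data had been seen, 5 of the 10 genes passed (Nanog, Esrrb, Tfcp2l1 and Prdm14 beside Zfp42), where 533 genes (3.61%) passed in all against 123 without it. Within each series Zfp42 was lower in A3 on 4 of 4 days (mean -1.16 and -1.01), as was Nanog (-1.31 and -0.90). The primitive endoderm list (Gata4, Gata6, Sox17, Sox7, Foxa2 and Dab2) summed to 37.7 to 207 RPM in A3 (median 95.1) and 28.1 to 138 RPM in WT (median 56.8). The mesoderm list (T, Mixl1, Mesp1 and Eomes) summed to 3.70 to 268 RPM in A3 (median 42.1) and 2.88 to 140 RPM in WT (median 7.18). The part of either list in the result was not tested. No gene tested changed its difference between days 2 and 3 and days 5 and 7 (edgeR, 0% of genes in each line, 832 and 108 at an unadjusted p under 0.05 in iXist-ChrX_Dom and iXist-ChrX_Cast), and of the 10 genes 0 had such a p in either line.

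In the iXist-ChrX_Cast line, D5 and G6 together did not differ from WT by the test in any of the 10 genes (edgeR, 0 of 10, where 0.439% of 14803 genes passed, and 0 by DESeq2). At an unadjusted p under 0.05 were 2 of the 10 and 1452 of all genes tested. Samples of both KO clones shared 1 KO term in this fit, so the difference between the clones counted as spread. The KO difference was 0.21 ± 0.19 for Nanog (edgeR adjusted p = 0.836) and -0.41 ± 0.14 for Zfp42 (adjusted p = 0.214). For 8 of the 10 genes the fitted differences of the KO clones had opposite signs, and for Klf5 and Zfp42 both were negative. Some of these were smaller than their SE, such as Tdgf1 in D5 (0.04 ± 0.18) and Tbx3 in G6 (0.02 ± 0.26). The share of all genes with opposite signs was not counted. Fitted alone, D5 was higher for Nanog (0.62 ± 0.13, edgeR adjusted p = 0.00679) and lower for Klf5 (-0.43 ± 0.09, adjusted p = 0.00484), where 8.58% of genes passed, and G6 was lower for Zfp42 (-0.77 ± 0.11, adjusted p = 0.0032), where 1.85% did. Both were set against the same WT samples. Zfp42 was at 56.8 and 67.3 RPM on day 2, 52.4 and 31.7 on day 3, 20.4 and 21 on day 5 and 15.3 and 14.7 on day 7 in G6, below every WT sample of its day, as for 0.473% of genes. Of the 10 genes, 0 lay above WT in D5 without overlap on all 4 days (1.3% of genes).

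Set against each other, a comparison added after the levels had been seen, 7 of the 10 genes were higher in D5 than in G6, where 9.23% of 14726 genes were higher. Nanog differed most (1.02 ± 0.14, edgeR adjusted p = 0.000265), followed by Klf2 (0.96), Esrrb (0.78), Prdm14 (0.70), Zfp42 (0.65), Tdgf1 (0.59) and Tfcp2l1 (0.52), while Klf4 had 0.57 (adjusted p = 0.158), Klf5 -0.29 (adjusted p = 0.0745) and Tbx3 -0.59 (adjusted p = 0.0828). Nanog and Tdgf1 lay higher in D5 without overlap on all 4 days, as 3.86% of genes did. With the replicate number as a block, 9 of the 10 passed, Klf5 and Tbx3 being lower in D5, and 5018 genes (34.1%) passed in all against 2990 without it. Prdm14 was lost without either D5 sample of day 2, the first of day 3 or the second of day 5 or 7, and without the first G6 sample of day 2, either of day 3 or the second of day 5. Tfcp2l1 was lost without the second D5 sample of day 2 or 5, the first of day 3, the first G6 sample of day 2 or the second of day 3 or 5. Of the 11 other naive state genes tested, 8 were also higher in D5, the largest being Fgf4 (1.17), Dppa3 (1.13) and Gdf3 (1.11). The primitive endoderm list summed to 34.6 to 146 RPM in D5 and to 137 to 419 RPM in G6 on these days, and to 78.7 to 381 RPM in WT. Its part in the difference between the clones was not tested.

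The KO difference was also set between the lines. By edgeR, 0 of the 10 genes passed, where 0.341% of 15554 genes did, and 1, Nanog, passed by DESeq2. At an unadjusted p under 0.05 were 7 of the 10 and 1387 of all genes tested. Nanog had the largest value, -1.22 ± 0.31 (edgeR adjusted p = 0.0809), and it passed without the first G6 sample of day 2 or the second of day 5. From day 15 on, KO and WT differed in 0 of the 10 genes in either line by edgeR, where 0% of 14475 genes passed in iXist-ChrX_Dom (1578 at an unadjusted p under 0.05, 3 of them among the 10, and 2 of the 10 by DESeq2) and 0% of 14562 in iXist-ChrX_Cast (1847, 2 of them among the 10, and 0 by DESeq2). These fits had 3 and 5 residual degrees of freedom. Nanog was at -2.25 ± 0.60 in iXist-ChrX_Dom (edgeR adjusted p = 0.451), with A3 below WT on all 4 late days.

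Since the lines are hybrids, fragments over known variants tell the alleles apart. At least 10 allelic fragments per clone and stage were asked for, and the CAST share was set beside the median share of genes within 10 Mb. On days 2 to 7, Nanog came mostly from the CAST allele, with 79.3% in iXist-ChrX_Dom WT (95% Wilson interval 77.8 to 80.7, 2995 allelic fragments) and 72.6% in iXist-ChrX_Cast WT. A3 had 69.5% (66.8 to 71.8% by sample), D5 81.4% and G6 69.4%. The pooled value of iXist-ChrX_Dom WT joined unlike samples of the 2 library-name series. Its first samples of days 2, 3, 5 and 7 had 78.8, 72.5, 70.2 and 72.1%. Its second samples had 86.9, 79.4, 83.5 and 84.7%. Medians of the neighbours were 52.1 and 47.3% in these WT lines and 47.6, 58.6 and 47.9% in A3, D5 and G6. iXist-ChrX_Dom WT had the higher share around Nanog and the higher level of Nanog against A3, and D5 had both against G6. The median log2 difference of genes within 10 Mb of Nanog was -0.16 between A3 and WT (175 genes) and 0.29 between D5 and G6 (177 genes), against 0.012 and 0.048 over chromosome 6. Whether this region had a part in the levels of Nanog was not tested.

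**Figure D5:**
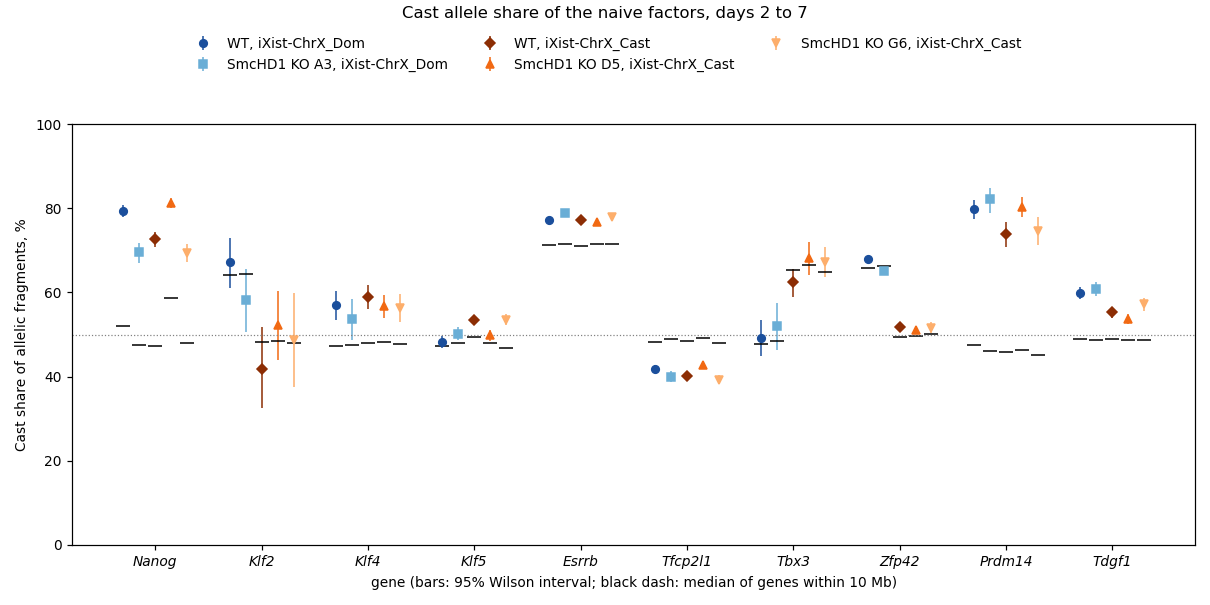
Share of allelic fragments from the CAST allele (percent, points with 95% Wilson interval) on days 2 to 7 by gene and clone; black dashes give the median share of the genes within 10 Mb. Nanog and Prdm14 lie above their neighbours in every clone and Tfcp2l1 lies below them.

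Prdm14 also leaned to the CAST allele (73.9 to 82.1%, neighbours 45.1 to 47.6%), while Tfcp2l1 leaned to 129/Sv (39.3 to 42.9% CAST, neighbours 47.9 to 49.1%). Esrrb had 76.8 to 79.0% against 71.1 to 71.6% around it. In ES cells its share was 72.0% in A3, 71.7% in D5 and 74.0% in G6, and it was the only 1 of the 9 genes covered whose share on days 2 to 7 lay above that of ES without overlap of samples in all 3 KO clones, as 2.01% of 11077 genes did. Tdgf1 went from 48.6, 42.1 and 47.4% in ES to 60.9, 53.8 and 57.2% in A3, D5 and G6, with overlap in at least 1 clone. Zfp42 moved the other way at the end: in iXist-ChrX_Dom WT it had 67.9% on days 2 to 7 (67.3 to 68.5) and 53.2% from day 15 on (49.3 to 57.0, 645 fragments), and in A3 65.1 and 46.0% (40.2 to 51.9), while in iXist-ChrX_Cast WT it had 51.9 and 31.7% (23.6 to 41.2, 104 fragments). The late value of iXist-ChrX_Dom WT came mostly from day 21 (50.1%, 431 fragments), with 63.7% on day 15, and the second samples of days 5 and 7 were already at 59.6 and 59.5%. In iXist-ChrX_Cast WT, 95 of the 104 late fragments came from day 15. D5 went from 51.1 to 42.6% (34.4 to 51.3) and G6 from 51.7 to 43.1% (34.2 to 52.5), with late intervals that held the earlier value. Medians of the neighbours of Zfp42 on days 2 to 7 were 65.8 and 66.3% in iXist-ChrX_Dom WT and A3. They were 49.5, 49.5 and 50.1% in iXist-ChrX_Cast WT, D5 and G6. From day 15 on the medians were 66.9, 66.8, 47.9, 51.4 and 51.3% in the same order. These intervals cover counting error only. Over the 10 genes in all clones and stages, 63 of 130 shares lay above their neighbours' median, 20 below, and 47 had an interval that held it. The same count was not made for other genes, so it does not set the 10 apart from them. Klf2 was thinly covered (10 to 261 allelic fragments per clone and stage), and all its intervals held the median of its neighbours.

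Over the 65 samples, each gene was set against the mean of the other 9 (log2 RPM, scaled per gene). Pearson's r was 0.97 for Tfcp2l1, 0.95 for Prdm14, 0.94 for Esrrb and Nanog, 0.93 for Tdgf1, 0.92 for Klf5 and Zfp42, 0.79 for Tbx3, 0.72 for Klf4 and 0.66 for Klf2. Samples share clones, days and culture, so these values describe the time course and carry no test. Genes with a mean of at least 1 RPM numbered 13710, the 10 among them. Outside the 10, the profiles most like their mean included those of Zbtb44 (r = 0.97), Lrrc34 (0.96), Mreg (0.96), Lefty2 (0.96), Ooep (0.95), Dppa5a (0.95), Suz12 (0.95), Zfp106 (0.95) and Alg13 (0.94). Lefty2 is an inhibitor of Nodal signalling, Suz12 a core subunit of the Polycomb repressive complex PRC2, and Dppa5a and Ooep are genes of early embryos and oocytes.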

How the data were processed

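ChrRNA-seq libraries of mouse XX mESC lines were analysed at 10 autosomal genes. Per the paper's methods and the labels, the authors removed rRNA reads with Bowtie2 (2.3.2), aligned what was left with STAR (2.4.2a) to mm10 masked at variant positions, kept unique alignments, assigned fragments to the 129/Sv or CAST allele with SNPsplit and counted stranded fragments over whole gene spans of RefSeq with featureCounts. The deposited values are raw counts per gene for 22556 genes, in total and per allele. Runs R1 and R2 of a sample were summed, which left 65 samples of 72 libraries.

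RPM are counts per 1000000 counted fragments of a library, with a pseudocount of 0.1 RPM on the log scale. Tests used edgeR 4.0.16 in R 4.3.3 (TMM, filterByExpr, glmQLFit and glmQLFTest), adjusted by Benjamini-Hochberg over all genes tested, with a threshold of 0.05. Day was a factor. In the fits of KO against WT, samples of D5 and G6 shared 1 KO term, so the difference between these clones counted as spread. In the steps within clones, the D5 and G6 contrasts were averaged. DESeq2 1.42.0 and the other settings of the closing section were alternatives, and the fits were tested on simulated data. Labels do not say that samples of a clone were separate cultures, so p-values measure the spread between these samples, which may be technical. The 10 genes and the lists were chosen with earlier results of these data known. Named beside the 10 were the 10 genes most correlated with their mean profile (1 of them is not reported here), and in each list the passing genes with the 3 largest changes. The comparison of D5 with G6, the library-name series as a block and the single-clone values of the day steps were added after the data had been seen. The comparison of day 5 with day 2 was not in the plan either. Deviations from the group means correlated between same-numbered samples of D5 and G6 (r = 0.36 to 0.76), so that the replicate block is given beside that comparison. With 2 samples per clone and day, the deviations of a group mirror each other, so both pairs of a day give the same r. Between iXist-ChrX_Dom WT and A3 same-numbered samples ran opposite (r = -0.71 to -0.38). Pairs of 1 library-name series, whose numbers are crossed, hold the same values with the sign turned and add no separate evidence. The fit with the series as a block is given beside that without a block.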

Additional observations from a re-analysis of the deposited data

Results flagged for a closer look

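The 2 KO clones of the iXist-ChrX_Cast line differed from each other in 7 of the 10 genes over days 2 to 7, by a test of the difference itself (edgeR), where 9.23% of 14726 genes were higher in D5. The comparison was added after the levels had been seen, and 4 of the 10 passed with R1 and R2 as separate samples. D5 minus G6 on the log2 scale came to 1.02 for Nanog, 0.96 for Klf2, 0.78 for Esrrb, 0.70 for Prdm14, 0.65 for Zfp42, 0.59 for Tdgf1 and 0.52 for Tfcp2l1. The adjusted p-values from edgeR were 0.000265, 0.00969, 0.00777, 0.0364, 0.00388, 0.0165 and 0.0331 in that order. No group had 4 or more samples on the same day, so no single sample was tested as an outlier.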

How the results depend on the processing

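Counts are of the 10 genes past the threshold. For KO against WT on days 2 to 7 in iXist-ChrX_Dom, 1 rose to 5 with DESeq2, 2 with no filter on low counts, 5 with the library-name series as a block (the crossed pairing of the replicate numbers) and 0 to 5 with a sample left out. In iXist-ChrX_Cast, 0 became 2 with R1 alone, 2 with D5 alone and 1 with G6 alone. From day 15 on, 0 became 2 with DESeq2 and 3 with 1 fit over all samples of the line in iXist-ChrX_Dom, and 4 with such a fit in iXist-ChrX_Cast. For the difference between lines, 0 became 1 with DESeq2, 2 with the series block and 0 to 1 with a sample left out. D5 against G6 went from 7 to 4 with R1 and R2 as separate samples and to 9 with the replicate block. Day 7 against day 2 went from 2 to 4 with DESeq2, 4 with the replicate block, 5 with the series block and 1 to 6 with a sample left out in iXist-ChrX_Dom WT; from 3 to 1 to 6 with a sample left out in A3; from 3 to 5 with DESeq2, 5 with R1 alone and 2 to 5 with a sample left out in iXist-ChrX_Cast WT; and from 7 to 2 in D5 alone. Late against days 5 and 7, 0 became 1 with DESeq2, 1 with the series block and 0 to 3 with a sample left out in iXist-ChrX_Dom WT; 3 became 7 with DESeq2, 5 with library totals, 1 with no filter, 5 with the series block and 0 to 5 with a sample left out in A3; and 6 became 1 to 7 with a sample left out in iXist-ChrX_Cast WT. Day 2 against ES in A3 went from 8 to 4 to 6 with a sample left out. Over all genes, KO against WT on days 2 to 7 in iXist-ChrX_Dom went from 123 to 549 with DESeq2, 533 with the series block and 18 to 252 with a sample left out, and from day 15 on from 0 to 194 with DESeq2 and 1512 with 1 fit over the line, and to 1913 with such a fit in iXist-ChrX_Cast. The cause of these shifts was not tested. With a sample left out, 0 of 2506 values reversed and 2247 kept their side of the threshold, and with the other settings 0 of 1416 reversed and 1277 did. Of 50 pairs of a gene and a clone, 18 had reached 50% of the day 2 level by day 7, and 17, 17 and 16 with a pseudocount of 1 RPM, TMM scaling or linear interpolation. For days 15 and later, with 1 sample per clone and day, WT and KO were matched by day, a factor of the fit, and not by replicate number. Leaving out the only G6 ES sample could not be fitted. At the lowest depth, 3 fragments came to 0.321 RPM, so lower levels were not detectable there.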
